A study of Mus musculus with 65 samples.

Results

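The comparison set early p3 progenitors against early pMN progenitors, both sorted on day 4 of differentiation, 1 day after the Shh agonist SAG was added. Its members were the 8 day 4 libraries sorted as p3 or pMN, 4 of each, out of 65 libraries in the series. All came from HM1, a single line of mouse embryonic stem (ES) cells that was kept on feeder fibroblasts and taken, with bFGF and then bFGF with the Wnt agonist CHIR99021, to neuromesodermal progenitors by day 3. The cultures of these 8 libraries received retinoic acid (100 nM) and SAG, which activates Smoothened, from day 3 onwards. p3 cells were sorted as SOX2+ NKX2.2+ OLIG2- and pMN cells as SOX2+ OLIG2+ NKX2.2-, after fixation and staining inside the cell. In p3 there was 1 library at 100 nM SAG (replicate 3) and 3 at 500 nM (replicates 1, 2 and 3). In pMN there were 2 libraries at each concentration (replicates 2 and 3). Each library was bulk RNA of the sorted cells, so fewer cells that express a gene and less RNA per cell cannot be told apart. The labels do not say that replicates were separate differentiations, and p-values measure the spread between these libraries.

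The ventral neural tube is patterned by Shh, which is secreted by the notochord and then by the floor plate. High signal gives p3 progenitors, which express NKX2.2 and make V3 interneurons in the spinal cord and visceral motor neurons in the hindbrain. The adjoining pMN domain expresses OLIG2 and makes somatic motor neurons. NKX2.2 and OLIG2 repress each other, and the homeodomain proteins PAX6, IRX3 and IRX5 belong to more dorsal programmes that NKX proteins repress.

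The compared libraries held 7684611 to 13484815 reads assigned to genes. The p3 library at 100 nM SAG had the most reads of the 65 but the fewest genes with at least 1 read, 9718, against 11416 to 14075 in the other 7. The mean number of genes detected was 11983 ± 1539 in p3 and 12585 ± 1108 in pMN (SD, n = 4 each). Without that library the p3 mean was 12738 ± 367 (n = 3). The library was set apart for this very number, so the means are a description and no test is given. Of 6464 genes with at least 100 normalised reads in each of the other 7 libraries, 493 had at most 3 reads in it. The same count for each of the other libraries in turn ran from 0 to 96. This library is also the only p3 sample at 100 nM SAG, so its SAG concentration and its few detected genes cannot be told apart.

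**Figure D1:**
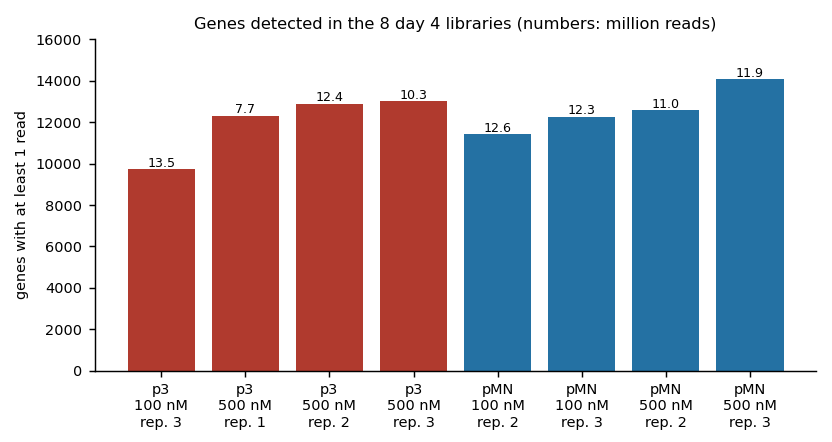
Number of genes with at least 1 read (y axis) in each of the 8 libraries (red p3, blue pMN), with the reads of the library above each bar. p3 at 100 nM, replicate 3, stands lowest with 9718 genes, and the other 7 lie between 11416 and 14075.

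With all 8 libraries, 309 of 13964 tested genes were called (limma adjusted p below 0.05 and over 2-fold), of which 43 were higher in p3 (0.308% of the genes tested) and 266 lower (1.9%). In 211 of the 266 p3 100 nM replicate 3 had at most 3 reads, and in 68 its 3 companions at 500 nM all lay at or above the lowest pMN library. The 266 had a log2 difference of -2.60 with that library and -0.68 without it, and 229 kept their sign. The 43 higher genes had medians of 2.50 and 2.45, and all 43 kept a positive difference. Without it 8 calls were made, 4 of genes higher in p3 (0.0286%) and 4 of genes with less in p3 (0.0286%), while 302 of the 309 calls were lost. The count of 309 was 470, 520 and 529 without p3 500 nM replicates 1, 2 and 3. The count of 8 was 13, 19 and 30 when one of these was also left out. It was 49 without pMN 100 nM replicate 3, 16 without pMN 500 nM replicate 2 and 36 without pMN 500 nM replicate 3. Values below are normalised reads, in the order 100 nM replicate 3 and 500 nM replicates 1, 2 and 3 for p3, and 100 nM replicates 2 and 3 and 500 nM replicates 2 and 3 for pMN. Log2 differences are p3 minus pMN of log2(value + 1), each with its standard error, without p3 100 nM replicate 3 unless stated, and every adjusted p is from limma unless another tool is named.

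**Figure D2:**
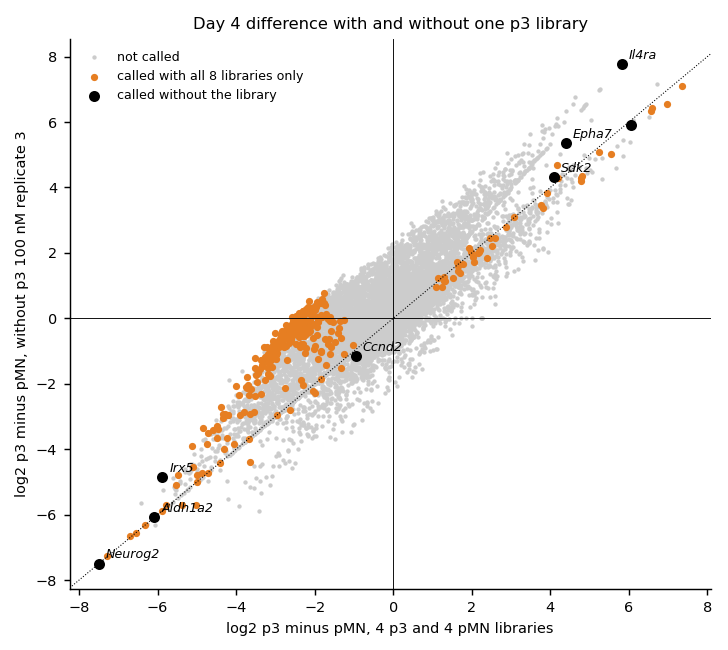
Log2 difference between p3 and pMN for each of the 13964 genes, with all 8 libraries (x axis) and without p3 100 nM replicate 3 (y axis). The dotted line marks equal values. Most orange points on the left, called only with all 8 libraries, lie above the dotted line and so nearer to 0 without the library, and the 8 genes called without the library are in black, 7 of them named.

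The genes that stayed lower in p3 comprised a proneural factor, an Iroquois factor, a retinoic acid enzyme and a cyclin. Neurog2 (chr3:127633136-127635631, mm10), a bHLH factor that drives neurogenesis in motor neuron progenitors, had 0 reads in every p3 library and 161, 381, 169 and 101 normalised reads in pMN. Its level was at least 71.4-fold lower in p3, computed against 3 reads per library (log2 -7.50 ± 1.17, adjusted p = 2.30e-04). Irx5 (chr8:92357796-92361456), a homeodomain gene of the more dorsal progenitors, had 0, 10.4, 14.9 and 29.1 normalised reads in p3 against 509, 674, 557 and 351 in pMN. Every p3 library lay below every pMN library (log2 -4.86 ± 0.68, adjusted p = 3.63e-05, with all 8 libraries log2 -5.89 ± 0.64, adjusted p = 3.92e-08). Aldh1a2 (chr9:71215789-71296243), which makes retinoic acid, was at 0 in every p3 library and at 174, 199.9, 3.48 and 133 in pMN, so that 1 pMN library was also close to 0. Its level was at least 44.9-fold lower in p3 (log2 -6.08 ± 0.95, adjusted p = 2.30e-04).

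Ccnd2 (chr6:127125709-127151048), the G1 cyclin D2, was by far the most abundant of these genes. It had 20026, 13529, 9019.7 and 12607 normalised reads in p3 and 23465, 30689, 21423 and 28578 in pMN. The groups did not overlap, but the p3 library at 100 nM came closest to pMN. Ccnd2 was called without that library (log2 -1.16 ± 0.19, adjusted p = 3.69e-04), whereas with all 8 its difference stayed under 2-fold (log2 -0.96 ± 0.17, adjusted p = 3.60e-04). Without p3 500 nM replicate 2 as well, it was under 2-fold again (log2 -0.98).

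Progenitors of more dorsal domains sorted on day 4 (p2 and p0-1, told apart by PAX6 and NKX6.1) also expressed Irx5 and Neurog2. The p2 libraries came from 10 or 100 nM SAG and the p0-1 libraries from 0 or 10 nM. Cell type and SAG concentration therefore both differ from the compared libraries. Irx5 ran from 387 to 767 normalised reads in 3 p2 libraries and from 430.1 to 1523 in 5 p0-1 libraries. Neurog2 ran from 62.2 to 192 in p2 and from 14.6 to 91.9 in p0-1. Aldh1a2 ran from 101 to 223 in p2 and from 0 to 206 in p0-1, so p0-1 also had a library at 0. In the 3 day 3 libraries of neuromesodermal progenitors, the cells from which these types were derived, Aldh1a2 ran from 9.92 to 31.3. These are levels given side by side, with no test.

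The start sites of Neurog2 and Aldh1a2 are shown because both genes had no read in p3. Each run covers 250 bases before and 50 bases after the start in RefSeq on GRCm38.p6, on the + strand, at chr3:127632886-127633185 for Neurog2 and chr9:71215539-71215838 for Aldh1a2. Capitals mark a TATA-like match, TATATA.
Neurog2: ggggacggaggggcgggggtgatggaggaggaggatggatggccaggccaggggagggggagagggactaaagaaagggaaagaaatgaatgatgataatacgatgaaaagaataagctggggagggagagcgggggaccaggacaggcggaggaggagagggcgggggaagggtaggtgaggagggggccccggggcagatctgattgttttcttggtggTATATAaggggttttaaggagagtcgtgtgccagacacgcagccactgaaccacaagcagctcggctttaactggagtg
Aldh1a2: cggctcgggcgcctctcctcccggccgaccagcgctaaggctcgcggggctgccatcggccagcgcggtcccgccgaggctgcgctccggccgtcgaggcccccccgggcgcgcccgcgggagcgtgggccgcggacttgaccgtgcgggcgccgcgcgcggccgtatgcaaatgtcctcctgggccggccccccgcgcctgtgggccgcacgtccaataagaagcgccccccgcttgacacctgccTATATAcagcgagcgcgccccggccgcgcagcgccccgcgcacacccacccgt
Both windows hold TATATA, as do 5.67% of the 32851 promoter windows of the same length in RefSeq. Counted from the start, its first base is at -29 in Neurog2 and at -3 in Aldh1a2, where the match runs across the start itself. The windows searched for Epha7 (1 of 2 listed), Il4ra and Sdk2, called genes described below, hold no TATATA. Searched on both strands, neither holds the letters TGTTTAC (forkhead), TGGGTGGTC (GLI), CACTTNA (NK-2 homeodomain), CATATG (the OLIG E-box) or AGGTCA (read by retinoic acid receptors), which 3.65, 0.253, 11.5, 3.91 and 16.3% of all windows hold. The search says only which letters stand in these windows.

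Genes that stayed higher in p3 included an ephrin receptor, a cytokine receptor and an adhesion molecule. Epha7 (chr4:28813131-28967503), an ephrin receptor of axon guidance and tissue boundaries, had 47.6, 655, 596 and 833 in p3 and 1.6, 0, 193 and 159 in pMN in normalised reads. All 3 p3 libraries at 500 nM lay above all pMN libraries, but the p3 library at 100 nM did not (log2 5.35 ± 0.65, adjusted p = 1.28e-06). Without that library the p3 side is all at 500 nM SAG while pMN is at both concentrations. At 500 nM alone Epha7 was not called (log2 1.97, adjusted p = 0.973). The 2 pMN libraries at 100 nM were at or near 0, below the 176 to 357 of p2.

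Il4ra (chr7:125552271-125579474), the alpha chain of the interleukin 4 receptor, had 0, 268, 255 and 148 normalised reads in p3 and 0 in every pMN library. Its p3 mean without the 100 nM library was at least 91.2-fold higher, against 3 reads per library (log2 7.76 ± 1.58, adjusted p = 0.0214). Sdk2 (chr11:113780172-114067029), a cell adhesion molecule of synapses, had 139, 152, 545 and 203 in p3 and 0, 0, 204 and 137 in pMN, and the groups overlapped (log2 4.31 ± 0.90, adjusted p = 0.0279). At 500 nM alone Sdk2 was at log2 0.62 (adjusted p = 1) and Il4ra at log2 7.76 (adjusted p = 0.23), and neither was called. Both calls also depended on single libraries. The adjusted p of Il4ra was 0.109 without p3 500 nM replicate 1, 0.0641 without p3 500 nM replicate 2 and 0.0589 without pMN 100 nM replicate 2. For Sdk2 it was 0.145 without p3 500 nM replicate 2, 0.373 without pMN 100 nM replicate 2 and 0.225 without pMN 100 nM replicate 3.

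**Figure D3:**
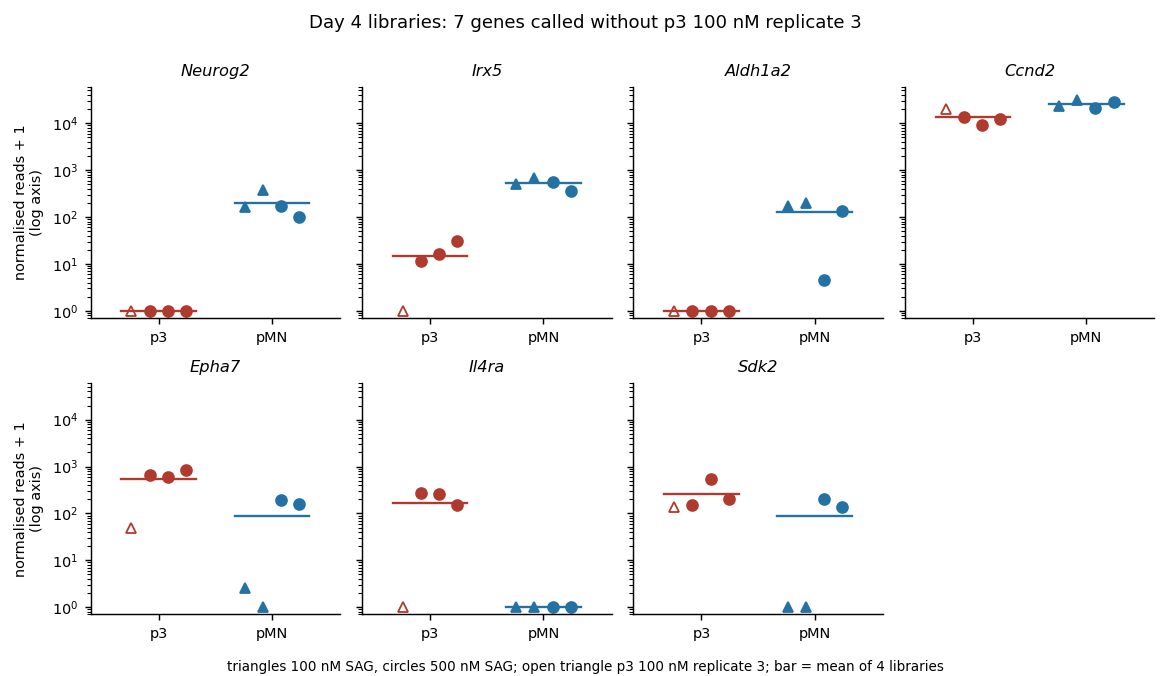
Normalised reads + 1 (log axis) of 7 of the 8 genes called without p3 100 nM replicate 3, in each p3 (red) and pMN (blue) library. Triangles are 100 nM SAG, circles 500 nM, the open triangle is p3 100 nM replicate 3 and bars are means of 4 libraries. Neurog2 and Aldh1a2 sit at 0 in all p3 libraries and Il4ra sits at 0 in all pMN libraries.

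The model took its spread from all groups of the series, including groups where a gene was at 0. In a fit of the 7 libraries alone none of the 8 genes passed (limma, 0 genes called, 848 with an unadjusted p under 0.05, adjusted p of the 8 from 0.098 to 0.658), although each had an unadjusted p under 0.05. Aldh1a2 was also not called with edgeR (adjusted p = 0.57). With the spread taken from the 15 remaining day 4 libraries 7 genes were called, and Irx5, Neurog2 and Epha7 were 3 of them. At 500 nM SAG, with 3 p3 and 2 pMN libraries, limma called 5 genes, all lower in p3, and Irx5 (log2 -4.65 ± 0.82, adjusted p = 0.0114), Neurog2 and Ccnd2 were among them. Aldh1a2 was at log2 -4.61 there and was not called (adjusted p = 0.23). The other genes called were Hes3, a gene of the Hes family at 0 in all p3 libraries and at 2.4, 0, 163 and 47.1 in pMN, and Tec. Tec, a kinase gene, had 555 normalised reads in the p3 library at 100 nM and 0 in those at 500 nM.

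The genes of the proteins used in the sorting scheme chose the cells and are given as a description. Olig2, which defines pMN, had 103, 146, 33.7 and 415 normalised reads in p3 and 447, 1801, 1078 and 1187 in pMN, without overlap. Nkx2-2, which defines p3, was low in both, with 33.7, 59.8, 103 and 21.4 in p3 and 0, 96, 0 and 11.2 in pMN, and 1 pMN library lay among the highest p3 values. Pax6 had 330.0, 216, 877 and 41.8 in p3 and 1230.0, 1688, 1085 and 1746 in pMN. Every p3 library lay below every pMN library. The progenitor genes Sox2, at 1651, 593, 1228 and 1444 in p3 and 1076, 1245, 1189 and 1554 in pMN, and Nkx6-1, at 744, 222, 143 and 392 in p3 and 331, 533, 499.7 and 695 in pMN, overlapped. Olig2 RNA therefore followed the labels in every library, whereas Nkx2-2 RNA separated 3 of the 4 pMN libraries from p3.

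Genes of the p3 domain and floor plate were mostly at higher values in p3 but none passed the test. Of 17 listed genes, Nkx2-2 of the sort among them, 12 were tested, 11 had a positive difference without the 100 nM library, and the median log2 difference was 1.03 (all genes tested, 0.03). With all 8 libraries it was 0.62 (all genes tested, -0.08). Nkx2-9, the homeodomain relative of Nkx2-2, had 2503, 4822, 1601 and 2870.3 in p3 and 345, 752, 442 and 1195 in pMN, with no overlap (adjusted p = 0.904). Sulf1, which edits heparan sulfate, had 587, 399, 427 and 776 in p3 and 229.7, 221, 235 and 181 in pMN, also without overlap (adjusted p = 1). Across all genes tested 421 (3.01%) had no overlap between the 4 and 4 libraries, 181 with p3 above and 240 with p3 below. Foxa2, a forkhead pioneer factor, had 1379, 339, 471 and 1555 in p3 and 0, 413, 0 and 530.1 in pMN, so that 2 pMN libraries had none and the other 2 exceeded the lowest p3 library (adjusted p = 0.675). Shh itself, a floor plate gene, had 0, 66.3, 0 and 0 in p3 and 0, 0, 26.9 and 0 in pMN. Nkx6-2, active in ventral progenitors, belonged to the list of intermediate and dorsal domains below and not to these 17. It had 3429, 3894, 2458 and 1534 in p3 and 593, 425, 1459 and 942 in pMN, with no overlap (adjusted p = 1).

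The pMN and motor neuron list held 15 genes, all tested. Neurog2 and Aldh1a2 were lower in p3 with and without the 100 nM library (lower calls made up 1.9% and 0.0286% of the genes tested), and no gene was called higher. Without that library 6 of the 15 had a positive and 7 a negative difference, and the median log2 difference was 0.00 (all genes tested, 0.03). With all 8 libraries the median was -0.02 (all genes tested, -0.08). Olig1, the neighbour of Olig2, had 0, 3.9, 0 and 81.6 in p3 and 0, 283, 157 and 228 in pMN (adjusted p = 0.919). Neurod4, a bHLH gene that follows Neurog2, had 0, 7.8, 0 and 0 in p3 and 294, 293, 0 and 171 in pMN (adjusted p = 0.638). Neurod1, a related bHLH gene, leaned the other way, with 14.6, 80.6, 104 and 567 in p3 and 208, 0, 48.7 and 51.1 in pMN (log2 2.65, adjusted p = 0.79), and the motor neuron gene Mnx1 had 0, 200.2, 16.5 and 0 in p3 and 0 in every pMN library (adjusted p = 0.772). Lhx3 and Lhx4, motor neuron LIM genes, were at 0 in all 8 libraries, and Isl1 had reads in 1 (at 9.58 in pMN 500 nM replicate 3).

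Of the 24 genes of intermediate and dorsal domains, 18 were tested and 11 of the 24 were at 0 in all 8 libraries, among them Dbx1, Pax3 and Pax7. With all 8 libraries Irx3, Irx5 and Pax6, a gene of the sorting scheme, were called lower in p3. Without the 100 nM library only Irx5 was. Lower calls made up 1.9% and 0.0286% of the genes tested. Without that library 4 of the 18 had a positive and 8 a negative difference, and the median log2 difference was 0.00 (all genes tested, 0.03). With all 8 libraries it was 0.00 (all genes tested, -0.08). Nkx6-2 of this list, given above, lay higher in every p3 library. Irx3, which lies next to Irx5, had 13.9, 65, 533 and 665 in p3 and 1504, 1523, 1461 and 1178 in pMN with no overlap (log2 -2.30 ± 0.61, adjusted p = 0.141, with all 8 libraries log2 -3.37 ± 0.56, adjusted p = 1.01e-04). Pax6 was no longer called although its difference was as large (log2 -2.81 ± 0.72, adjusted p = 0.133, with all 8 libraries log2 -2.63 ± 0.67, adjusted p = 0.0175). Irx2, of the other Iroquois cluster, overlapped, at 486, 0, 202 and 265 in p3 and 28, 284, 282 and 145 in pMN (adjusted p = 1).

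**Figure D4:**
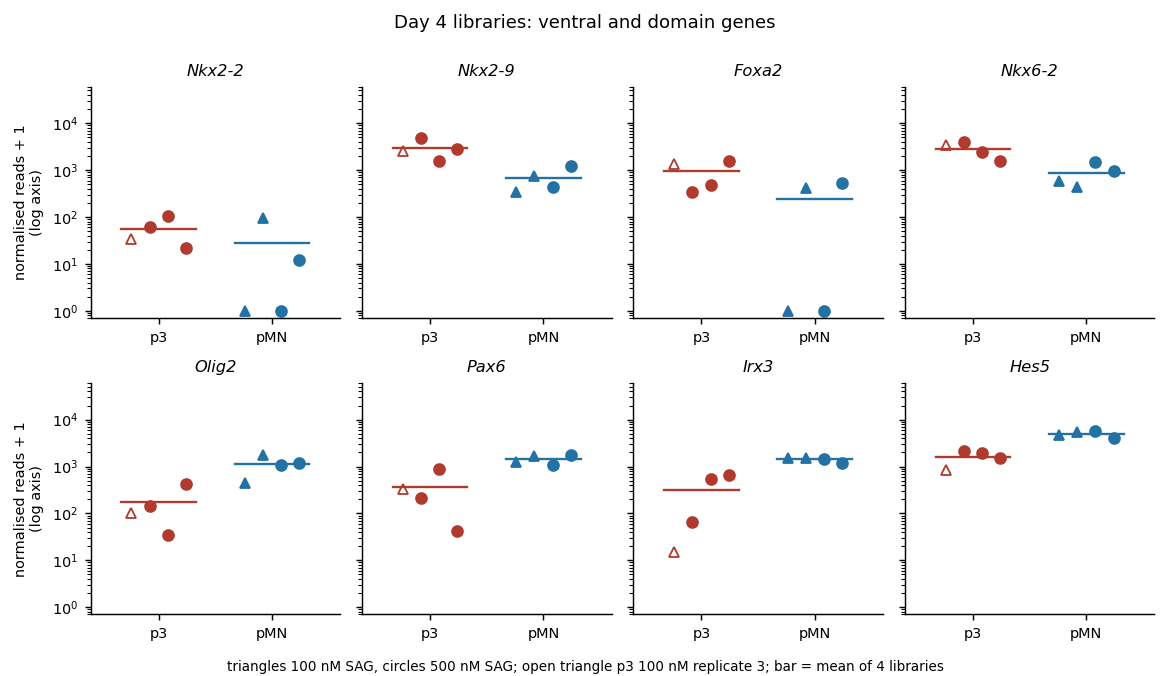
Normalised reads + 1 (log axis) of 8 genes of ventral progenitor domains in each p3 (red) and pMN (blue) library, with symbols as for the genes called. Nkx2-9 and Nkx6-2 lie higher and Olig2, Pax6, Irx3 and Hes5 lower in every p3 library than in every pMN library, whereas Nkx2-2 and Foxa2 overlap.

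No gene of the Shh pathway was called without the 100 nM library, when 0.0286% of the genes tested were called in each direction. All 17 were tested, and in each of them the p3 and pMN libraries overlapped, as in all but 3.01% of all genes tested. Their median log2 difference was -0.05 (all genes tested, 0.03), and 0.15 with all 8 libraries (all genes tested, -0.08). The direct target Ptch1, which encodes the Shh receptor, had 7647, 7891, 4994 and 10334 in p3 and 4054, 7742, 5218 and 8494 in pMN (adjusted p = 1). Gli1, the target that reports Shh signalling, had 508, 1178, 1171 and 1172 in p3 and 849, 1518, 1552 and 2087 in pMN (adjusted p = 1). With all 8 libraries Gli2 and the coreceptor gene Boc were called lower in p3, as were 1.9% of all genes tested (Gli2 log2 -3.72 ± 0.97, adjusted p = 0.0223, and Boc log2 -3.66 ± 1.04, adjusted p = 0.0443). Without the 100 nM library neither passed. Gli2, which had 0 reads in that library, then had log2 -2.12 (adjusted p = 0.794), whereas the difference of Boc was larger, at log2 -4.38 (adjusted p = 0.133).

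Of 28 Notch and proneural genes 27 were tested, 5 were called lower in p3 with all 8 libraries (1.9% of all genes tested) and only Neurog2 without (0.0286%). Their median log2 difference was 0.09 without the 100 nM library (all genes tested, 0.03) and 0.00 with all 8 libraries (all genes tested, -0.08). The Notch effector Hes5 had 839, 2168, 1972 and 1510.4 in p3 and 4685, 5388, 5843 and 4146 in pMN. Its groups were apart in every library, and it was called with all 8 libraries (log2 -1.70 ± 0.33, adjusted p = 9.62e-04) but not without (log2 -1.42 ± 0.36, adjusted p = 0.133). The ligand Dll1 had 0, 755, 362 and 491 in p3 and 1299, 818, 859 and 432 in pMN, and the call with all 8 libraries (adjusted p = 4.28e-05) was lost without the library at 0 (adjusted p = 0.978). Dll3 had 0, 87.1, 536 and 326 in p3 and 408, 638, 807 and 477 in pMN (adjusted p = 6.37e-04 with all 8 and 0.858 without). Hes3 had the same difference in both fits and was called with all 8 (log2 -3.68 ± 1.02, adjusted p = 0.0374) but not without (log2 -3.68 ± 1.10, adjusted p = 0.251). The receptor gene Notch2 had 3265, 2862, 2539 and 3513 in p3 and 1172, 1969, 1709 and 1659.7 in pMN, without overlap, and did not pass the test (adjusted p = 0.722).

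Of the 16 retinoic acid genes 15 were tested, and Aldh1a2 alone was called, lower in p3 with and without the 100 nM library. Lower calls made up 1.9% and 0.0286% of all genes tested. The median log2 difference was 0.08 without that library (all genes tested, 0.03) and 0.31 with all 8 libraries (all genes tested, -0.08). Crabp1, a retinoic acid binding protein, had 4599, 6434, 3052 and 2602 in p3 and 2842, 1917, 2223 and 1588 in pMN (adjusted p = 0.937). Of 20 cell cycle genes, all tested, Ccnd2 alone was called without the 100 nM library (0.0286% of all genes tested were called lower) and Mcm5 alone with it (1.9%). The median log2 difference of these genes was -0.05 without it (all genes tested, 0.03) and 0.01 with all 8 libraries (all genes tested, -0.08). Ccnd1, the paralogue of Ccnd2, had 56.3, 767, 714 and 396 in p3 and 396, 583, 510.1 and 342 in pMN (adjusted p = 1). Mcm5, a subunit of the replicative helicase, had 259, 3136, 1377 and 1288 in p3 and 2777, 5657, 2533 and 2903 in pMN (adjusted p = 0.00362 with all 8 and 0.651 without). The mitotic genes Cdk1, at 3180.4, 2232, 3109 and 2105 in p3 and 1372, 1863, 1952 and 1681 in pMN, and Top2a, at 7570.3, 7945, 7601 and 7036 in p3 and 6831, 6164, 6922 and 7033 in pMN, and the inhibitor gene Cdkn1c, at 3574, 1501, 896 and 1486 in p3 and 551, 776, 99.9 and 831 in pMN, lay higher in every p3 library, and none passed (adjusted p = 0.984, 1 and 1). For Top2a the gap was only that between 7036 and 7033. In all, 4 of the 20 genes had no overlap (3.01% of all genes tested), Ccnd2 among them and lower in p3. The proliferation genes Ccnb1 and Mki67, with higher means in p3, and Ccna2 and Ccnb2, with lower ones, overlapped. Ccnb2 had 2177, 1140, 1423 and 1818 in p3 and 3509, 2879, 1494 and 1313 in pMN.

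Further genes lay apart in all 8 libraries without passing the test once the 100 nM library was left out. The 11 with the smallest p among those higher in p3, at a mean of at least 100 in a type, were Ppm1h, Abhd10, Unc5a, Igsf9b, Zfp91, Clcn4, Mdm2, Snx2, Tmem135, Ckb and Ankrd16 (adjusted p from 0.093 to 0.266). Unc5a, a netrin receptor gene, had 1433, 1356, 577 and 940.2 in p3 and 294, 366, 65.2 and 526 in pMN. Mdm2, which restrains p53, had 1394, 1558, 2066 and 1755 in p3 and 571, 444, 1329.6 and 976 in pMN. Ckb, brain creatine kinase, had 5495, 4819, 3769 and 3648 in p3 and 2018, 2706, 2039 and 1636 in pMN. Those lower in p3 included, beside Irx3, Hes5 and Pax6, Bcs1l, Coq7, Arhgap27, Emid1, Tmem132e, Nrf1, Nfxl1 and Galnt9 (adjusted p from 0.093 to 0.162). Bcs1l, a chaperone of respiratory complex III, had 0, 13, 186 and 9.71 in p3 and 397, 445, 628 and 384 in pMN. Emid1, a secreted matrix protein gene, had 402, 1746, 1356 and 1982 in p3 and 3420.3, 3396, 3802 and 3741 in pMN. Galnt9, a glycosyltransferase gene, was at 0 in every p3 library and at 146, 237, 137 and 119 in pMN.

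Of the 15 calls per direction with the smallest p from all 8 libraries, 24 of 30 were lost without p3 100 nM replicate 3. Beside Irx5, Aldh1a2 and Neurog2, the 12 next on the lower side were Slc39a6, E2f1, Dennd6b, Ilkap, Usp42, Ddx41, Ints11, Glis2, Ccdc191, Gmfb, Gadd45g and Tmub2. In p3 100 nM replicate 3 they had 0 to 5.85 normalised reads, and in the other 7 libraries each had 152 or more. E2f1, an S phase transcription factor gene, had 0, 879, 527 and 457 in p3 and 1606, 1187, 1264 and 1486 in pMN (adjusted p = 1.57e-07 with all 8 and 0.505 without). Without the library the 12 had adjusted p from 0.279 to 1 and log2 differences from -1.34 to 0.53. On the higher side the next were Ppm1h, Abhd10, Unc5a, Igsf9b and Zfp91 from above with Gtpbp10, Dennd4b, 6430503K07Rik, Ms4a4d, Ednrb, Idua and Tet2, and without the library the latter 7 had adjusted p from 0.093 to 0.162. Their sizes were similar in both fits, as for 6430503K07Rik, with 132, 70.2, 111 and 79.6 in p3 and 0 in every pMN library (log2 6.59 with all 8 libraries and 6.43 without). 6430503K07Rik (chr2:147187424-147188482) lies beside Nkx2-2 (chr2:147177546-147186402), the gene of a protein used in the sort. Ednrb, an endothelin receptor gene, had 3599, 4613, 1664 and 4486 in p3 and 1069.9, 1999, 1211 and 1344 in pMN (adjusted p = 0.115).

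Markers of other cells that the cultures could hold were summed over each list but that of neural crest, and their part in the results was not tested. Paraxial mesoderm genes, 12 in number with 5 at 0 in all 8 libraries, summed to 106 to 231 in p3 and 135 to 363 in pMN, and the defining genes Msgn1 and Mesp1 were at 0. Pluripotency genes (10) summed to 1.46 to 317 in p3 and 4 to 278 in pMN, with Esrrb and Fgf4 at 0. The 21 genes of neuromesodermal progenitors summed to 3816 to 6696 in p3 and 5160.2 to 7193 in pMN, most of it from Fgfbp3, Sp8 and Wnt5b. Fgf8 and Wnt3a were at 0 in all 8 libraries, while Cdx2 had 225, 0, 0 and 3.99 and Cdx1 96, 0, 0 and 37.5 in pMN, both at 0 in p3, and Cdx1 was called lower in p3 with all 8 libraries (log2 -2.97 ± 0.78, adjusted p = 0.0255) but not without the 100 nM library (log2 -2.97 ± 0.84, adjusted p = 0.219). Endoderm genes (13) summed to 1514 to 3378 in p3 and 1015 to 4367 in pMN with Sox17 and Cer1 at 0. Of the 12 genes of postmitotic neurons none was called, and they summed to 1492 to 2034 in p3 and 1488 to 2781 in pMN. Feeder fibroblast genes (10) summed to 1390.1 to 2742 in p3 and 1158 to 2352 in pMN, most of it Fn1, with Col3a1 and Dcn at 0. The neural crest list (8 genes) is given by member. Sox10 and Foxd3 were at 0 in all 8 libraries. Ets1 had 130.2, 107, 94.1 and 64.1 in p3 and 0, 0, 8.69 and 41.5 in pMN, without overlap (adjusted p = 0.722). No gene of the other lists above was called without the 100 nM library.

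On days 5 and 6 there were 11 libraries of each type, which are other libraries of the same series fitted in the same model. There 183 genes differed, 87 higher in p3 (0.623% of the genes tested) and 96 lower (0.687%). Most of the 87 had a difference of the same sign on day 4, although few passed the test there. Of the 81 with more than 3 reads in any of the 8 day 4 libraries, 66 (81.5%) had a positive difference without the 100 nM library, against 51.8% of all genes tested, with a median of 1.01 against 0.03. Of the 85 such genes among the 96, 54 (63.5%) had a negative difference, against 46.5% of all genes, with a median of -0.55. Of the 183, 2 were called on day 4 without the 100 nM library, 1 in each direction, and Neurog2 was the one lower in p3.

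Neurog2 had 166 ± 173 in p3 and 1348 ± 706 in pMN on days 5 and 6 (SD, n = 11 each, log2 -7.50 ± 1.17 on day 4 and -4.34 ± 0.66 later). Of the 87, 10 had no overlap on day 4 (421 of all genes tested, 3.01%), among them 6430503K07Rik, Gpx3, Igfbp5, Igsf9b, Lrp1, Mtarc2, Notch2 and Plat, chosen here after their values were seen. Igfbp5, which binds insulin-like growth factors, had 4835, 3078, 2353 and 5659.9 in p3 and 1259.6, 1343, 779 and 833 in pMN on day 4 and 1431 ± 949 in p3 and 362 ± 264 in pMN later. On the lower side the 7 were Emid1, Glra1, Hes5, Neurog2, Pax6, Sfrp2 and Zcchc4, and Sfrp2, a secreted Wnt antagonist gene, had 979, 846, 726 and 1046 in p3 and 1533, 1412, 1329.6 and 1409.8 in pMN.

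Several of the strongest later differences had no reads behind them on day 4. Of the 5 largest on the p3 side, Dbh, which makes noradrenaline, and Crhbp were at 0 in all 8 day 4 libraries. Vtn, the vitronectin gene, had reads in 1 p3 library alone (at 235 in 500 nM replicate 3), and later 1371 ± 1363 in p3 and 43 ± 84 in pMN. Foxa2 had 1166 ± 904 in p3 and 104 ± 136 in pMN and Nkx2-2 255 ± 90.9 in p3 and 15.8 ± 30.9 in pMN later, and neither passed on day 4. On the pMN side Lhx3 and Nhlh2 were at 0 in all 8 libraries, and Rgs8, Lmo1 and Slc1a2 were at 0 in every p3 library. Rgs8 had reads in 1 pMN library (at 37.4), and Lmo1 and Slc1a2 in 2 each (at 36 and 19.2 for Lmo1, and at 244 and 12.8 for Slc1a2). Lhx3 reached 459 ± 436 in pMN later.

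**Figure D5:**
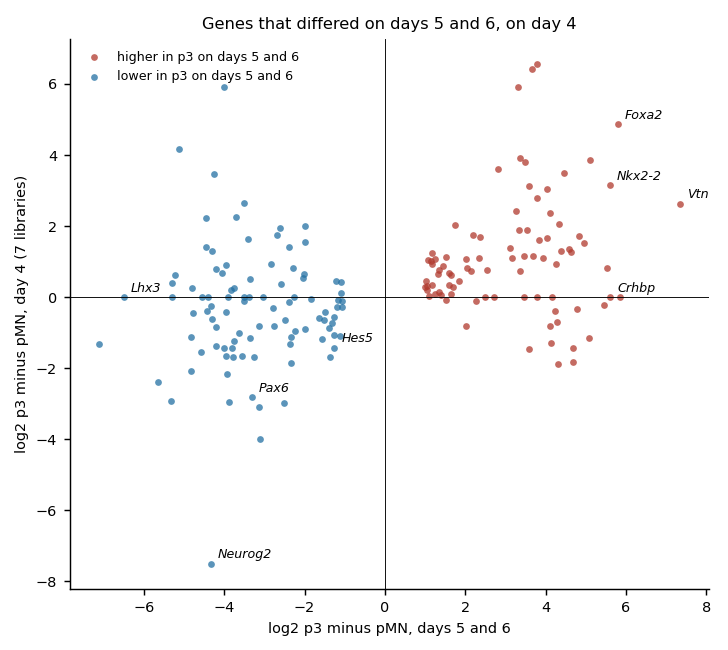
Log2 difference between p3 and pMN on days 5 and 6 (x axis) and on day 4 without p3 100 nM replicate 3 (y axis) for the 183 genes called on days 5 and 6. Red genes were higher and blue genes lower in p3 later. Neurog2 and Foxa2 lie far from 0 on both axes, while Lhx3 and Crhbp lie at 0 on day 4.

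The difference between p3 and pMN was itself compared between day 4 and the later days, as an interaction in the same model. It was called for 173 genes with all libraries (1.24%) and for 8 without p3 100 nM replicate 3 (0.0573%). Irx5, called on day 4, was not called later, with 513 ± 235 in p3 and 472 ± 199 in pMN (difference between days, log2 -4.96 ± 0.78, adjusted p = 5.52e-04). Its p3 libraries of days 5 and 6 ran from 232 to 1039, all above the p3 libraries of day 4. Aldh1a2 was at 0 in all 22 later libraries of either type (adjusted p of the difference between days = 0.00348). Epha7 had 415 ± 192 in p3 and 288 ± 136 in pMN later (adjusted p = 5.52e-04), and Il4ra, higher in p3 on day 4, had 355 ± 409.5 in p3 and 584 ± 440.0 in pMN (adjusted p = 0.00214). For Neurog2, Ccnd2 and Sdk2 the difference between days did not pass (adjusted p = 0.715, 0.589 and 0.643), and Ccnd2 was at 13803 ± 3843 in p3 and 20231 ± 4865 in pMN later.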

How the data were processed

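The libraries were made from fixed cells, stained inside the cell, sorted by flow cytometry and reverse crosslinked, with SMART-Seq HT and Nextera XT kits and ERCC spike-ins. The authors aligned reads with STAR to mm10 with the nf-core pipeline, counted them over refGene with featureCounts and removed libraries that failed quality control. Whether counting used strand is not given in the sources used here, so antisense and overlapping genes cannot be told apart. The deposited signal is counts divided by a size factor per library ("normalised reads"), and 100% of 834400 values above 0 came out as whole reads (tolerance 0.01 read). These reads carry no molecular identifiers, so floors of 3 reads cover counting error only. The deposited GTF, whose fields are other than measurements, gave coordinates, and promoters came from RefSeq (GRCm38.p6).

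Genes with a mean of at least 10 over the 65 libraries (13964) were tested with limma 3.58.1 (R 4.3.3) on log2(value + 1), with a mean for each of 25 groups and a trend in the variance, Benjamini-Hochberg adjustment and a call at an adjusted p below 0.05 and over 2-fold. The day 4 contrast was the mean of the p3 minus the mean of the pMN libraries. It shares no library with that of days 5 and 6. Genes were named if they belonged to the sort or to a list and were called or lacked overlap, if they were among the 15 smallest p per direction (filled up, where fewer were called, with genes without overlap and a mean of at least 100), or if they were among the 5 largest later changes per direction. Others serve as context. Some genes that met this rule are not reported here. The groups of libraries and the gene lists were chosen with earlier results of these data known. Alternatives used edgeR 4.0.16 on the recovered reads, other pseudocounts, filters, normalisations and samples. A run of DESeq2 1.42.0 was scaled by the inverse of each size factor. Its values appear only where settings are compared, and no result rests on them. The fits were tested on simulated data. Repeats without other single libraries, with array weights, with genes detected as a covariate or on the 15 remaining day 4 libraries were added, where p3 100 nM replicate 3 was left out, after seeing the data.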

Additional observations from a re-analysis of the deposited data

Results flagged for a closer look

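Dixon's rule was applied to 137 groups of 4 libraries. These were the values in p3 and in pMN of each of the 77 genes that met the naming rule, where not all equal, and the genes detected. In 14 a library's distance from the nearest of the others, as a share of the range, exceeded the 95% critical value. That limit assumes normal values. These genes were named for their values, and the share is at its largest wherever the others are all at 0, so no chance rate is given. None of the 14 was p3 100 nM replicate 3. The rule cannot clear that library, because a low value beside widely spread companions is not flagged. In pMN, 100 nM replicate 3 was high for Nkx2-2 (96 normalised reads against 0, 0 and 11.2) and for Mcm5 (5657 against 2777, 2533 and 2903). pMN 100 nM replicate 2 was high for Slc1a2 (244 against 0, 0 and 12.8) and low for Igsf9b (1035 against 2786, 2669.7 and 2804), Snx2 (197 against 668, 610.1 and 606) and Tmem132e (733 against 1073, 1046 and 1064). At 500 nM, pMN replicate 3 was high for Ppm1h (58.3 against 8.8, 0 and 0), Dennd4b (151 against 0, 1.6 and 0) and Ms4a4d (66.3 against 0, 0 and 0), and pMN replicate 2 was high for Rgs8 (37.4 against 0, 0 and 0). In p3, 500 nM replicate 2 was high for Sdk2 (545 against 139, 152 and 203) and Bcs1l (186 against 0, 13 and 9.71), and 500 nM replicate 3 for Clcn4 (1192 against 801, 823 and 841) and Vtn (235 against 0, 0 and 0).

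For 8 genes the difference between p3 and pMN on day 4 was itself different from that on days 5 and 6 without p3 100 nM replicate 3 (limma interaction, log2 difference of differences). Irx5 (-4.96) and Aldh1a2 (-6.08) were lower in p3 on day 4, and Epha7 (4.81) and Il4ra (10.54) were higher in p3 on day 4, and none of the 4 was called on days 5 and 6. Dbh (-5.85) was at 0 on day 4 and had 145 ± 137 in p3 later (SD, n = 11), with every pMN library at 0. Elmod2 (3.27), the uncharacterised 2610035D17Rik (9.93) and Gm15412 (9.30) had higher means in p3 on day 4 and in pMN later. For 2610035D17Rik these were 135 in the 3 p3 libraries at 500 nM and 5.99 in pMN on day 4, and 68.6 ± 85.7 in p3 and 236 ± 133 in pMN later.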

How the results depend on the processing

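p3 100 nM replicate 3 decided the count of genes called, 309 with it and 8 without, and the genes detected (p3 minus pMN -602 with it and 153 without). Leaving out each of the 8 libraries in turn gave 8 to 529 calls, and leaving out each of the other 7 after that library gave 6 to 49. With all 8 libraries the count was 135 with a pseudocount of 10, 57 in a fit of the 8 alone, 5 at 500 nM only, 161 at an adjusted p below 0.01, 1071 with the SAG concentrations weighted equally, which gives that library as much weight as the other 3, and 2264 with DESeq2. It was 270 with a replicate block and lay between 259 and 442 under the other 8 settings. Without the library the count was 0 in a fit of the 7 alone, 22 with a replicate block, 13 with edgeR and 828 with DESeq2 (567 higher), and 6 to 8 under the other 6 settings. edgeR and DESeq2 ran on the recovered reads. The DESeq2 run was scaled by the inverse of each size factor, so its counts do not measure how far the result depends on the tool. The count for the difference between days was 173, 45 with a pseudocount of 10 and 8 without the library, and that for days 5 and 6 was 183 and 113 with a minimum mean of 100. The cause of each change of count was not tested.

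Deviations from the group means were correlated between the p3 and pMN libraries of day 4. In 6 same-numbered pairs, some of them of pMN with pMN, r ran from 0.0233 to 0.048. In 10 pairs with different numbers it ran from -0.048 to 0.0185. The means rest on few libraries, so these values cannot decide whether equal numbers pair the samples. The paper sorted several cell types within a dish for its chromatin data, so same-numbered libraries could share a dish. The main fit did not pair them. With a replicate block 270 genes were called with all 8 libraries and 22 without p3 100 nM replicate 3.

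Small differences changed sign. The log2 difference of Sox2 was 0.0467 with SAG concentrations weighted equally, ran from -0.302 to 0.19 when single libraries were left out, and from -0.555 to 0.0865 when this was done without p3 100 nM replicate 3. Top2a was at -0.11 in DESeq2 and -0.31 there without that library. That run was scaled by the inverse of each size factor, so its negative values do not measure the difference. In limma the log2 difference of Top2a was 0.16 with all 8 libraries and 0.16 without that library. Ilkap was at 0.60 at 500 nM only and ran from -3.17 to 0.525 when single libraries were left out, with the highest value without p3 100 nM replicate 3, and Ints11 was at 0.48 at 500 nM only.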
